A study of Mus musculus with 48 samples.

Results

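The genes described here are the potassium channel subunits of the mouse medial prefrontal cortex, measured in whole tissue and in microglia isolated from the same tissue. They were chosen by their measured level: every gene symbol in the count files that begins with Kcn was taken if it averaged at least 1 CPM (counts per gene, scaled so that each library has the same total) over the homogenates or over the microglia of the drinking cohort. Of 97 such symbols among 24062 genes, 80 met this rule, which reads the level in each preparation and neither the ethanol nor the LPS comparison. The homogenates alone brought in 48 members, both preparations 30, and the microglia alone 2, Kcna7 and Kcnn4. Just inside the threshold were Kcnmb1, with a mean of 1.15 CPM in homogenates, and Kcne4 with 1.45 CPM. Just outside it were Kcnk5 with 0.523 CPM and Kcnh8 with 0.416 CPM.

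All mice were C57BL/6, an inbred laboratory strain, and their age is not given in the sources used here. Ethanol mice chose freely to drink 15% (v/v) ethanol on alternate days over 60 days and were killed as soon as the bottles were taken off, and water mice had water alone. A small share of the minced tissue of each drinking mouse served as total homogenate. Cells of the remainder were dissociated, freed of myelin debris and captured on magnetic beads against CD11b. A separate cohort was killed 1 week after an intraperitoneal injection of 1.5 mg/kg lipopolysaccharide (LPS), a bacterial cell wall component that triggers inflammation, or of saline, and gave microglia only. Counts were analysed for 10 ethanol and 9 water homogenates and for 8 water, 10 ethanol, 5 saline and 5 LPS microglia. CD11b is carried by microglia and also by border macrophages, monocytes and neutrophils, so the bead-bound cells are a mixed myeloid fraction led by microglia.

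Potassium channels let potassium ions leave or enter a cell and thereby set its resting potential and end its action potentials. Voltage-gated pore subunits open on depolarisation, calcium- and sodium-activated subunits respond to ions entering the cell, inward rectifiers hold the resting potential and buffer potassium in glia, and tandem-pore-domain subunits carry leak currents. Accessory subunits bind the pore subunits and change their gating or transport. In macrophages and microglia, potassium efflux is a known trigger of the NLRP3 inflammasome, and several channels of these families are direct targets of ethanol. Members were grouped by symbol, not by function. The accessory subunits Kcnmb1, Kcnmb2 and Kcnmb4 and the pore subunit Kcnu1 were therefore counted with the calcium- or sodium-activated symbols. By this grouping the 80 members included 37 of 40 voltage-gated pore symbols, 11 of 12 calcium- or sodium-activated and 12 of 15 inward rectifier symbols. The rest were 9 of 14 tandem-pore-domain and 9 of 12 accessory symbols, with the antisense transcripts Kcnd3os and Kcnq1ot1 among 4 other symbols.

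Library totals in genes ran from 9.72 M to 67.5 M counts (M, mega), with the lowest in water mouse 24 microglia. Of the markers of the labelled cell types, 10 of 10 microglial markers were higher in isolated cells, by 25.3 to 63.6 times in water mice, and 10 of 10 neuronal markers were higher in homogenate, by 105 to 239 times. The protocol text of the homogenates of water mice 21, 24, 25 and 26 describes the bead isolation, while their characteristics name total homogenate and were followed. The summed neuronal markers of these 4 ran from 6950 to 8265 CPM, against at most 112 CPM in water microglia. Some libraries stood apart. The summed neutrophil markers reached 16741 CPM in the microglia of water mouse 19 against 45.9 to 321 CPM in the other water microglia, and 56.2% of reads assigned to genes or outside them in the microglia of water mouse 24 lay outside genes. The homogenate of water mouse 25 held a choroid plexus and ependymal marker sum of 82.9 CPM. Its mural, endothelial and border macrophage sums, 1112, 1003 and 210 CPM, were also the highest of the water homogenates. Oligodendrocyte markers summed to between 1467 and 12509 CPM in water homogenates and between 1534 and 7723 CPM in ethanol homogenates. In such bulk samples, fewer cells of a type and less RNA per cell cannot be told apart.

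The whole family took a far larger share of the transcriptome in tissue than in microglia. The 80 members summed to 6714 ± 620 CPM (SD, n = 9) in water homogenates and 6367 ± 387 CPM (SD, n = 10) in ethanol homogenates. In microglia the sums were 637 ± 60.4 CPM (SD, n = 8) with water, 694 ± 36.1 CPM (SD, n = 10) with ethanol, 616 ± 42.4 CPM (SD, n = 5) with saline and 659 ± 67.3 CPM (SD, n = 5) with LPS. The makeup differed as well. Voltage-gated pore subunits led the water homogenates with 3823 ± 426 CPM (SD, n = 9) and summed to 90.3 ± 21.5 CPM (SD, n = 8) in water microglia. Tandem-pore-domain subunits were the one subfamily with a higher sum in microglia, where it was 377 ± 54.5 CPM (SD, n = 8) beside 299 ± 23.6 CPM (SD, n = 9) in homogenate. Kcnk6 alone carried this: without it the other 8 summed to 88.9 ± 8.15 CPM (SD, n = 8) in microglia and 292 ± 24.1 CPM (SD, n = 9) in homogenate. Of the 9 members, 2 were higher in microglia without overlap and 6 lower.

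Because the rule reads the level in each preparation, the difference between preparations is given as a description, without a test. In water mice every microglial library lay above every homogenate for 5 members, or 6.25%, against 24.6% of all 14553 genes compared. These were Kcnk6, Kcnk13, Kcnd1, Kcnj2 and Kcna7. Every microglial library lay below every homogenate for 68 members, or 85.0%, against 40.8% of all genes. The libraries overlapped for the other 7: Kcna5, Kcne4, Kcnj13, Kcnk12, Kcnmb1, Kcnn4 and Kcnq1. In ethanol mice Kcnk6, Kcnk13 and Kcnd1 were higher without overlap, 3 members against 24.2% of all genes, and 65 members were lower against 38.3%.

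**Figure D1:**
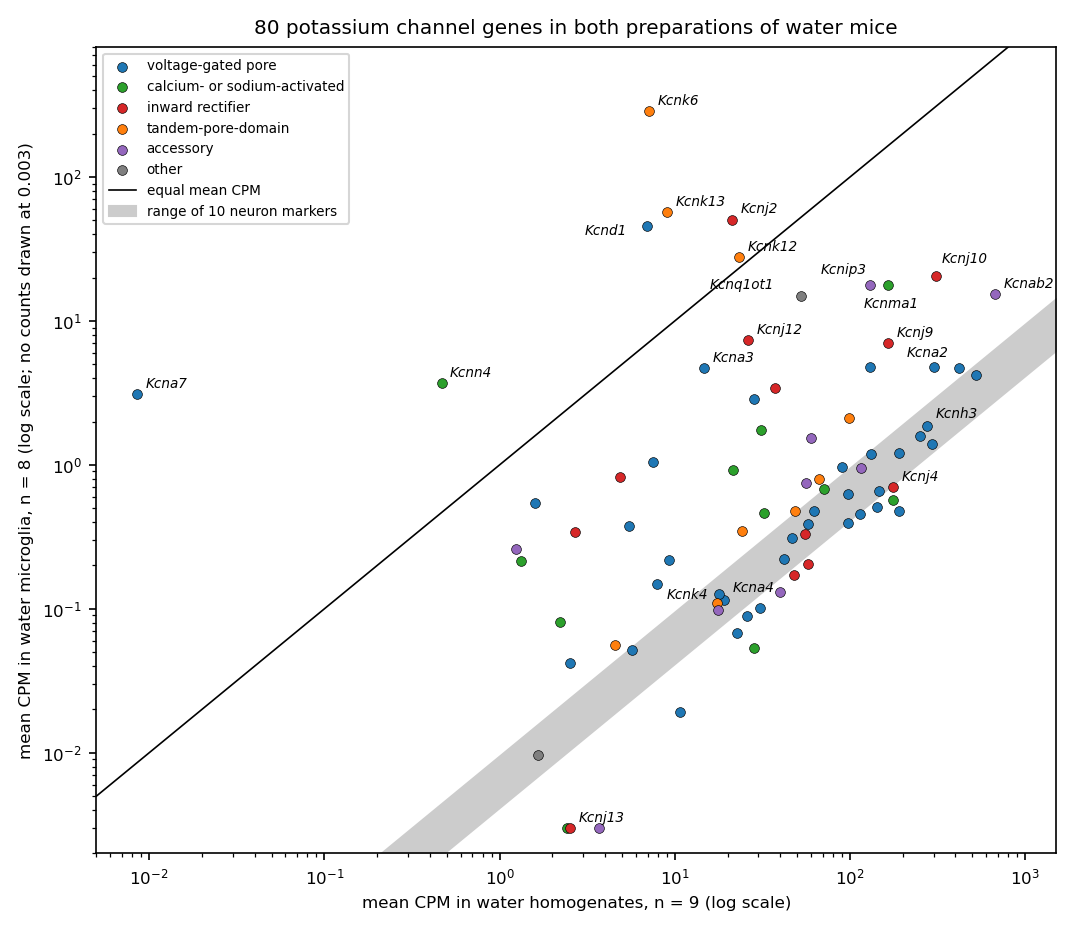
Mean CPM of the 80 members in water microglia (vertical, n = 8) against water homogenates (horizontal, n = 9), both on log scales, coloured by subfamily, with the line of equal levels and a grey band for the ratios of 10 neuronal markers. Of the members, 43 sit above the band and 37 in or below it. Among the 43, Kcnk6, Kcnk13, Kcnd1, Kcnj2, Kcnk12, Kcnn4 and Kcna7 sit above the line.

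Kcnk6 encodes a tandem-pore-domain leak channel that in mouse macrophages has been tied to potassium efflux and inflammasome activation, and it was the most abundant member in microglia. Its level in water microglia ran from a lowest of 214 CPM through a median of 293 CPM to a highest of 367 CPM, with a mean of 288 ± 53.5 CPM (SD, n = 8). In water homogenates it ran from 5.12 through 6.62 to 11.04 CPM, with a mean of 7.13 ± 1.81 CPM (SD, n = 9). The ratio of 40.3 lay inside the 25.3 to 63.6 of the 10 microglial markers. Ethanol microglia held 278 to 390 CPM with a median of 309 CPM. Saline microglia held 224, 269, 224, 325 and 316 CPM, and LPS microglia 405, 210, 302, 280 and 311 CPM. All 4 microglial groups overlapped one another, and none overlapped either homogenate group, in which ethanol mice had 4.03 to 9.81 CPM.

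Kcnk13 encodes the halothane-inhibited tandem-pore-domain channel that carries the tonic potassium current of rodent microglia and supports their surveillance of tissue. It ran from 46.04 through a median of 57.7 to 70.2 CPM in water microglia and from 5.54 through 7.29 to 16.5 CPM in water homogenates. The microglial mean was 6.33 times the homogenate mean, well under the ratios of the microglial markers. Ethanol microglia ranged from 43.2 to 84.7 CPM with a median of 67.05 CPM. Saline microglia held 63.4, 72.8, 53.7, 49.7 and 56.2 CPM, while LPS microglia were tightly grouped at 65.3, 63.5, 63.6, 61.6 and 62.1 CPM, inside the saline range. In homogenates, the highest Kcnk13 levels were 16.5 CPM in water mouse 26, 16.5 CPM in ethanol mouse 3 and 13.4 CPM in water mouse 17. Those homogenates also held the highest oligodendrocyte marker sums, 12509, 7723 and 9119 CPM, and the part of those cells in the level was not tested.

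Kcnk12 encodes the closest relative of Kcnk13, a subunit that gives little or no current by itself in expression systems. It was nearly level between preparations, with 21.9 to 31.9 CPM and a mean of 27.9 ± 3.39 CPM (SD, n = 8) in water microglia and 16.7 to 33.8 CPM and a mean of 23.4 ± 5.54 CPM (SD, n = 9) in water homogenates. In ethanol mice it stood at 32.5 ± 6.48 CPM (SD, n = 10) in microglia and 18.3 ± 3.22 CPM (SD, n = 10) in homogenates. Saline microglia held 30.5, 32.9, 30.6, 19.3 and 28.3 CPM and LPS microglia 30.6, 22.2, 26.96, 20.99 and 32.1 CPM.

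Kcnd1, a pore subunit of fast-inactivating A-type currents, ran from 34.1 through a median of 46.9 to 54.4 CPM in water microglia and from 5.09 to 7.87 CPM in water homogenates, a ratio of means of 6.51. Ethanol microglia ranged from 33.1 to 59.3 CPM and ethanol homogenates from 4.88 to 7.63 CPM. Saline microglia held 82.4, 45.01, 38.8, 46.1 and 46.8 CPM, with the first value, from mouse 38, above every other microglial library. LPS microglia held 52.2, 50.3, 47.6, 32.3 and 53.6 CPM.

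Kcnj2, the classical strong inward rectifier of microglia and blood vessels, ran from 32.3 through 49.95 to 66.6 CPM in water microglia and from 11.7 through 20.5 to 32.2 CPM in water homogenates. The mean in microglia was 2.37 times that in homogenates, and the lowest microglial library was just above the highest homogenate. Ethanol microglia ranged from 27.8 to 51.2 CPM and ethanol homogenates from 11.4 to 34.8 CPM, so that these overlapped. Saline microglia held 40.7, 45.96, 42.9, 45.8 and 47.9 CPM and LPS microglia 37.5, 33.2, 55.9, 40.9 and 58.6 CPM.

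The members that came in through microglia alone were low. Kcna7, a voltage-gated pore subunit best known from striated muscle, averaged 3.10 ± 1.50 CPM (SD, n = 8) in water microglia, with 5 counts in all in the 9 water homogenates. Its ethanol microglia ran from 0 to 4.91 CPM, its saline libraries held 0, 7.80, 3.82, 2.01 and 4.69 CPM and its LPS libraries 1.93, 6.73, 4.58, 3.75 and 6.12 CPM. Kcnn4, the intermediate-conductance calcium-activated channel of immune cells, averaged 3.71 ± 2.03 CPM (SD, n = 8) in water microglia and 0.468 ± 0.665 CPM (SD, n = 9) in water homogenates. Its highest microglial level, 8.11 CPM, was in water mouse 19, the library with the high neutrophil sum, and without it the mean was 3.08 ± 1.06 CPM (SD, n = 7). Its highest water homogenate level, 2.23 CPM, was in mouse 25, and without it the mean was 0.247 ± 0.0695 CPM (SD, n = 8).

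Kcna3 and Kcna5, voltage-gated pore subunits long studied in activated microglia, were both higher on average in homogenate. Kcna3 ran from 0.617 to 8.85 CPM in water microglia and from 8.97 to 19.5 CPM in water homogenates. Its saline libraries held 0.0961, 3.93, 4.83, 1.01 and 4.99 CPM and its LPS libraries 7.74, 11.9, 4.74, 5.07 and 0 CPM, which overlapped. Kcna5 reached at most 1.23 CPM in water microglia and 13.6 CPM in water homogenates.

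**Figure D2:**
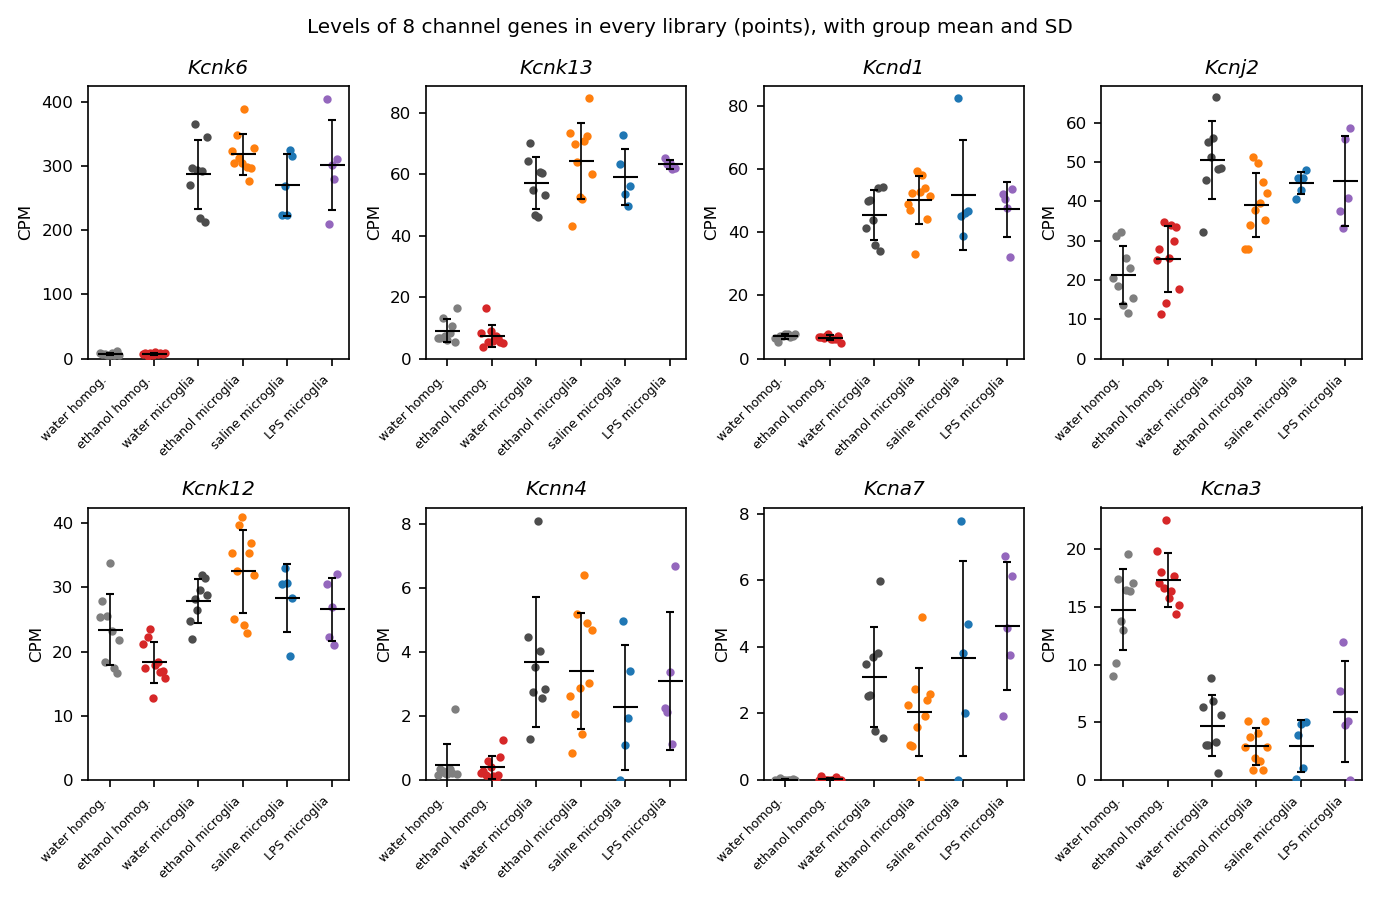
CPM of 8 channel genes (one panel each) in every library of the 6 groups, with group mean and SD. Kcnk6, Kcnk13 and Kcnd1 are separated between homogenates and microglia, the microglial groups overlap in every panel, and Kcna3 is higher in homogenates.

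Levels can be set against each other between genes only per length of exon. Per kilobase of exon, the leading members in water microglia were Kcnk6 with 69.3 ± 12.9 CPM per kb (SD, n = 8), Kcnk13 with 18.3 ± 2.71 CPM per kb, Kcnk12 with 14.1 ± 1.72 CPM per kb, Kcnj2 with 9.27 ± 1.81 CPM per kb and Kcnd1 with 8.60 ± 1.49 CPM per kb. The steps from Kcnk6 to Kcnk13, to Kcnk12 and to Kcnj2 were each larger than the larger SD of the neighbours, and that from Kcnj2 to Kcnd1 was smaller. The same first 3 genes led in ethanol microglia (76.8, 20.7 and 16.5 CPM per kb), saline microglia (65.4, 19.01 and 14.4 CPM per kb) and LPS microglia (72.7, 20.3 and 13.5 CPM per kb). In water homogenates the order was another one, led by the accessory subunit Kcnab2 with 121 ± 13.4 CPM per kb (SD, n = 9). The inward rectifier Kcnj4 followed with 81.8 CPM per kb, the axonal voltage-gated subunit Kcna1 with 63.5, the astrocyte inward rectifier Kcnj10 with 56.99 and the voltage-gated subunit Kcnh3 with 48.04 CPM per kb. Of these steps, only the one from Kcnab2 to Kcnj4 exceeded the larger SD.

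The promoter windows of 3 members at or above their homogenate level in microglia are shown because they can be read beside PU.1, the ETS-family factor that specifies the microglial lineage and binds sequences with a GAGGAA core. The windows are from RefSeq on GRCm38.p6, cover 250 bases before to 50 bases after a gene start, and are written 5′ to 3′ on the gene's strand. The window of Kcnk13 lies at chr12:99964249-99964548 on the plus strand, that of Kcnj2 at chr11:111065914-111066213 on the plus strand and that of Kcnk12 at chr17:87797945-87798244 on the minus strand. Capitals mark GAGGAA or its reverse complement TTCCTC.
Kcnk13: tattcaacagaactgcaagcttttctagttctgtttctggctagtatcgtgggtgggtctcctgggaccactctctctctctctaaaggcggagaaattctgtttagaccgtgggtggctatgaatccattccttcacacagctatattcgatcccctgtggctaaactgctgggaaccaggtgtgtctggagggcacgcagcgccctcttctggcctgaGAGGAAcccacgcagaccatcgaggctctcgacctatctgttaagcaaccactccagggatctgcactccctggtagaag
Kcnj2: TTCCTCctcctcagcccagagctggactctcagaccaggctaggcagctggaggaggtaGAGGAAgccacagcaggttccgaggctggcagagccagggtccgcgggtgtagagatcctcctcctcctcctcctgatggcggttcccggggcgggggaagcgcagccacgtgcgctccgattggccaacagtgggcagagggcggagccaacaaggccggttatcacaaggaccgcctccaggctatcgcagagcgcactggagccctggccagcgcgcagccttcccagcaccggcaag
Kcnk12: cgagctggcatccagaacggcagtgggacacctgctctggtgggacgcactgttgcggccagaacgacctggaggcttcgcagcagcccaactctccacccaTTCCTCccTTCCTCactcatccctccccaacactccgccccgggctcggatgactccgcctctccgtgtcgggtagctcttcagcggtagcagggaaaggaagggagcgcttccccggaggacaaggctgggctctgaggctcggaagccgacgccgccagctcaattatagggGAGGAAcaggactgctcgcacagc
The core occurred 1 time in the Kcnk13 window, 2 times in that of Kcnj2 and 3 times in that of Kcnk12, and in none of those of Kcnn4 and Kcna7. On either strand it was in 30.0% of the 80 windows found for 57 members and in 28.3% of all 32851 windows. The longer GAGGAAGT was in 0 member windows and 3.20% of all, the cAMP response element TGACGTCA in 0 and 1.79%, and the AP-1 motif TGANTCA in 3.75% and 7.81%. A match describes the letters and says nothing of binding. Kcnk6 and Kcnd1 had no entry.

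Below these genes came the members that were lower in microglia. For the 66 that had counts in microglia and no overlap, the homogenate mean was a median of 111 times the microglial mean. The 10 neuronal markers had a median of 187. At or above the lowest neuronal marker, 105, lay 37 of the 80 members, and the share of all genes was not computed. Among the 37, Kcne1l, Kcnj13 and Kcnmb2 had no count in water microglia and were placed by the bounds given below. The rule took 48 members by their homogenate level alone, which favours high ratios. The most abundant homogenate members by CPM were mainly subunits of neuronal excitability. Kcnab2, which binds axonal voltage-gated channels, ran from 554 to 773 CPM in water homogenates, and Kcna2, an axonal subunit, from 313 to 591 CPM. The fast-spiking subunit Kcnc1 averaged 293 CPM and the ether-a-go-go family subunit Kcnh3 277 CPM. The smallest microglial shares rested on few counts: 4 over the 8 water libraries for Kcng4, all of them in mouse 15, 11 for Kcnt2, 14 for Kcng1, 103 for Kcnf1 and 147 for Kcnt1. Their homogenate means were 310 to 554 times higher in water mice, and in ethanol mice 56.4 times for Kcng4, 127 for Kcng1, 204 for Kcnt1, 242 for Kcnf1 and 293 for Kcnt2. Without the microglia of water mouse 15 Kcng4 had no count left, and the ratio was 842 for Kcnt2, 654 for Kcnf1 and 673 for Kcng1. Without those of mouse 18 it was 909 for Kcnt2. Kcne1l, Kcnj13 and Kcnmb2 had no count in any water microglial library. With 3 counts summed over those libraries as the floor, Kcne1l was at least 268-fold, Kcnj13 at least 184-fold and Kcnmb2 at least 175-fold lower there. In ethanol mice their homogenate means were 67.8, 108 and 108 times the microglial means. These rested on 18, 2 and 7 microglial counts, those of Kcne1l all in 1 library. The Kcnj13 bound rested on the homogenate of water mouse 25 and was 69.9-fold without it, and the homogenate of mouse 26 had 0 counts of Kcnj13 too.

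Other members kept more of their level in microglia than neuronal markers did. Kcnj10, which clears potassium in astrocytes, ranged from 215 to 371 CPM in water homogenates and from 12.2 to 26.3 CPM in water microglia. Its ratio of 14.9 can be set beside a median of 31.6 for the astrocyte markers, and it lay inside their range of 5.41 to 100. Kcnma1, the large-conductance calcium-activated channel, stood at 165 ± 14.3 CPM (SD, n = 9) in homogenate and 17.8 ± 3.62 CPM (SD, n = 8) in microglia, a ratio of 9.26. Kcnip3, a calcium sensor that binds channels and also DNA, stood at 130 ± 35.4 and 17.8 ± 4.55 CPM, a ratio of 7.32. The ratios of Kcnj12, an inward rectifier, and of the imprinted antisense transcript Kcnq1ot1 were 3.59 and 3.50, and that of Kcnq1, a pore subunit of epithelia and heart, was 2.96. Kcnq1 rested on 107 counts in 4 of the 8 water microglial libraries, and its libraries overlapped between preparations. In ethanol mice its ratio was 6.23, with counts in 2 of 10 microglial libraries. Neuronal markers summed to at most 112 CPM in water microglia, and their part in these levels was not tested.

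Kcnab2 in microglia rested on 1 library. Its level ran from 3.70 through a median of 6.67 to 75.2 CPM, the highest being in water mouse 19, whose neutrophil marker sum was also highest. Without that library the mean was 6.84 ± 3.53 CPM (SD, n = 7), and the homogenate mean was 98.9 times higher in place of 43.97 times. Kcnj13, an inward rectifier of the choroid plexus, showed the like in homogenates. It reached 15.0 CPM in water mouse 25 and averaged 0.961 ± 0.869 CPM (SD, n = 8) in the other water homogenates. The choroid plexus and ependymal, mural, endothelial and border macrophage marker sums of that mouse were each the highest of the water homogenates.

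**Figure D3:**
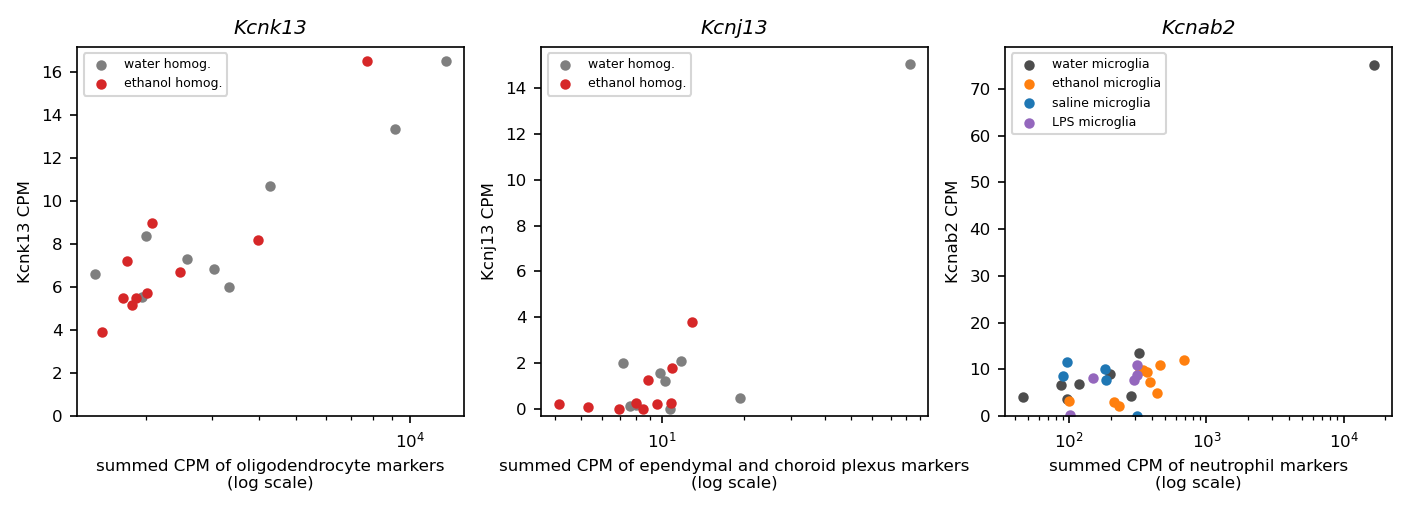
CPM of Kcnk13 and Kcnj13 in homogenates and of Kcnab2 in microglia, each against the summed CPM of a marker list (log scale), 1 point per library. Kcnab2 at 75.2 CPM and Kcnj13 at 15.0 CPM each lie at the highest marker sum of their panel, and the 3 highest Kcnk13 levels lie at the 3 highest oligodendrocyte sums.

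The first tested question was whether drinking ethanol changed these genes in whole tissue. In edgeR's quasi-likelihood test with Benjamini-Hochberg adjustment over 15215 genes, 79 members could be tested and 0 passed an adjusted p of 0.05, against 123 of all genes (0.808%). At an unadjusted p under 0.05 there were 16 members, 6 higher and 10 lower with ethanol, or 20.3% of those tested against 16.1% of all genes. The median log2 fold change of the members was -0.05, and that of all genes -0.01. For 0 members did the ethanol and water libraries separate, as they did for 0.0460% of all genes. DESeq2, run as an alternative, called 4 members, Kcna4, Kcnq1ot1, Kcnj14 and Kcng4, where it called 534 of all genes.

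Kcna4, the pore subunit of A-type currents in axons and their terminals, had the smallest p. It ran from 15.6 through a median of 18.4 to 24.4 CPM in water homogenates and from 17.7 through 25.2 to 38.9 CPM in ethanol homogenates. The ethanol libraries lay higher on the whole, and the groups overlapped. The log2 fold change was 0.46 (SE 0.12, edgeR adjusted p = 0.0766), and DESeq2 gave an adjusted p of 0.0190. Within the first and second sequencing runs, inferred from sample indices, it was 0.48 and 0.43.

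Kcnq1ot1, an imprinted noncoding RNA read from the strand opposite Kcnq1, ran from 32.1 through 45.9 to 98.2 CPM with water and from 31.0 through 94.1 to 211 CPM with ethanol. The log2 fold change was 0.90 (SE 0.26, edgeR adjusted p = 0.0922). The share of reads outside genes moved with it: this share was 27.2% ± 4.21 (SD, n = 10) in ethanol and 22.6% ± 1.91 (SD, n = 9) in water homogenates, and it was highest, 36.7%, in ethanol mouse 9, the library with 211 CPM. With that share as a covariate the log2 fold change was 0.12 (adjusted p = 0.893 in edgeR). With the same covariate the count of called genes went from 123 to 0 and that of members at an unadjusted p under 0.05 from 16 to 4. The share of all genes at that unadjusted p was not computed with the covariate.

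The other members of smallest p were lower with ethanol. Kcnj14, an inward rectifier, ran from 1.51 to 4.04 CPM with water and from 0.640 to 2.92 CPM with ethanol, a log2 fold change of -0.88 (SE 0.27, edgeR adjusted p = 0.112). Kcng4, a silent subunit that modifies other voltage-gated channels, ran from 3.05 to 21.4 CPM and from 2.47 to 8.58 CPM, a change of -1.06 (SE 0.35, edgeR adjusted p = 0.136). Within the inferred first run its change was -2.22 and within the second -0.03. Kcnab3, an accessory subunit, ran from 24.2 to 157 CPM and from 16.4 to 74.3 CPM, a change of -0.95 (SE 0.32, edgeR adjusted p = 0.142), with -1.35 and -0.18 within the first and second runs. Both water groups were wide and held the highest values. Kcnip1, a channel-interacting protein of interneurons, ran from 13.8 to 24.9 CPM and from 10.2 to 19.1 CPM, a change of -0.35 (SE 0.12, edgeR adjusted p = 0.137).

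The axonal subunits Kcna1 and Kcna2 were both lower on average with ethanol and did not pass. Kcna1 stood at 303 ± 84.4 CPM (SD, n = 9) with water and 218 ± 52.7 CPM (SD, n = 10) with ethanol, a log2 fold change of -0.46 (SE 0.16, edgeR adjusted p = 0.156). Kcna2 stood at 420 ± 94.4 and 336 ± 39.99 CPM, a change of -0.31 (SE 0.11, edgeR adjusted p = 0.177). The 10 oligodendrocyte markers had a median log2 fold change of -0.72 in this comparison, 0 of them passing. With their sum as a covariate, chosen after seeing the data, 23 members had an unadjusted p under 0.05 and 0 passed. The share of all genes under 0.05 in this fit was not computed, so the 23 cannot be read against it.

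**Figure D4:**
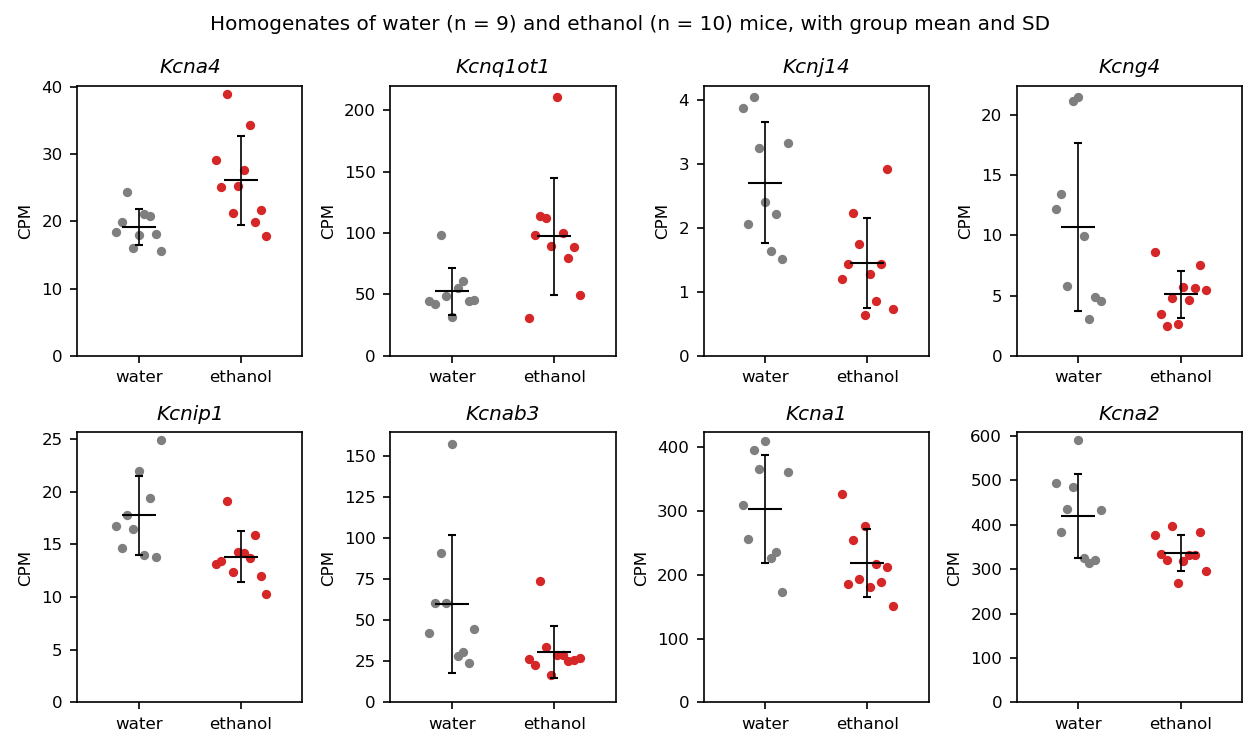
CPM of 8 members in each water (n = 9) and ethanol (n = 10) homogenate, one panel per gene, with group mean and SD. The groups overlap in every panel, with Kcna4 and Kcnq1ot1 higher on average with ethanol and the other 6 lower.

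Channels on which ethanol is known to act directly did not pass either. Kcnma1, whose channel ethanol activates in many neurons, ran from 148 to 193 CPM with water and from 134 to 234 CPM with ethanol, a log2 fold change of 0.12 (SE 0.07). Its neuronal partner Kcnmb4 stood at 70.7 ± 14.4 and 73.1 ± 14.9 CPM, a change of 0.06 (SE 0.14). Of the G protein-gated inward rectifiers, which ethanol opens, Kcnj3 stood at 57.9 ± 7.2005 and 53.2 ± 10.9999 CPM (-0.11, SE 0.11), Kcnj6 at 47.6 ± 7.26 and 52.7 ± 9.68 CPM (0.16, SE 0.11) and Kcnj9 at 164 ± 40.8 and 165 ± 35.2 CPM (0.02, SE 0.16). The small-conductance calcium-activated subunits Kcnn2 and Kcnn3 had log2 fold changes of -0.07 (SE 0.10) and 0.14 (SE 0.13), from 32.4 ± 5.59 and 31.0 ± 7.89 CPM in water homogenates. The M-current subunit Kcnq3 had a log2 fold change of -0.10 (SE 0.08). All of these are means of 9 water and 10 ethanol homogenates with SD, and their edgeR adjusted p-values lay between 0.443 and 0.970. A p above the threshold does not show that the levels were equal.

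The second question was the same contrast in isolated microglia. Of 50 members tested among 13223 genes, 0 passed in edgeR, where 1 of all genes did (0.00756%). An unadjusted p under 0.05 was reached by 3 members, or 6.00%, against 7.65% of all genes, and DESeq2 called 0 members. The fitted change was positive for 36 members and negative for 14, or 28.0%, against 53.0% negative of all genes. The median was 0.16 against -0.01 for all genes. Without water mice 19 and 24, 30 of 53 members were positive, with a median of 0.10 against 0.0036 for all genes. In the fit of all libraries the median change was 0.17 for the 10 neuronal, 0.64 for the 10 oligodendrocyte, 0.75 for 6 oligodendrocyte precursor, -2.78 for 9 neutrophil and -1.97 for 5 lymphocyte markers, with 0 called in each list, and their part in the members' median was not tested. For 0 members did the groups separate, against 0.0151% of all genes.

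Kcnj2 had the smallest p. Its water microglia had a mean of 50.5 ± 9.85 CPM (SD, n = 8) and its ethanol microglia 39.0 ± 8.13 CPM (SD, n = 10), with medians of 49.95 and 38.6 CPM. The ethanol libraries were lower on the whole and overlapped the water libraries. The log2 fold change was -0.41 (SE 0.14, edgeR adjusted p = 0.398), between -0.49 and -0.35 when any one library was left out. Kcnip3 ran from 11.8 through 17.9 to 25.5 CPM with water and from 16.1 through 24.3 to 30.6 CPM with ethanol, a change of 0.43 (SE 0.15, edgeR adjusted p = 0.438). The third, Kcnab2, had a fitted change of -1.11 (SE 0.52, edgeR adjusted p = 0.633), which was 0.07 without the library of water mouse 19.

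The microglia-led channels did not pass either. The log2 fold changes with ethanol were 0.12 (SE 0.08) for Kcnk6, 0.14 (SE 0.12) for Kcnk13, 0.18 (SE 0.13) for Kcnk12 and 0.11 (SE 0.10) for Kcnd1. For the low genes Kcnn4, Kcna7 and Kcna3 they were -0.15 (SE 0.40), -0.66 (SE 0.57) and -0.70 (SE 0.43). EdgeR adjusted p-values of these 7 lay between 0.735 and 0.978. Kcnj9, a G protein-gated subunit, had 4.94 to 8.82 CPM with water and 4.55 to 13.2 CPM with ethanol (0.40, SE 0.21), and Kcnd3 had 0 to 2.16 and 0.327 to 4.55 CPM (1.11, SE 0.72).

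**Figure D5:**
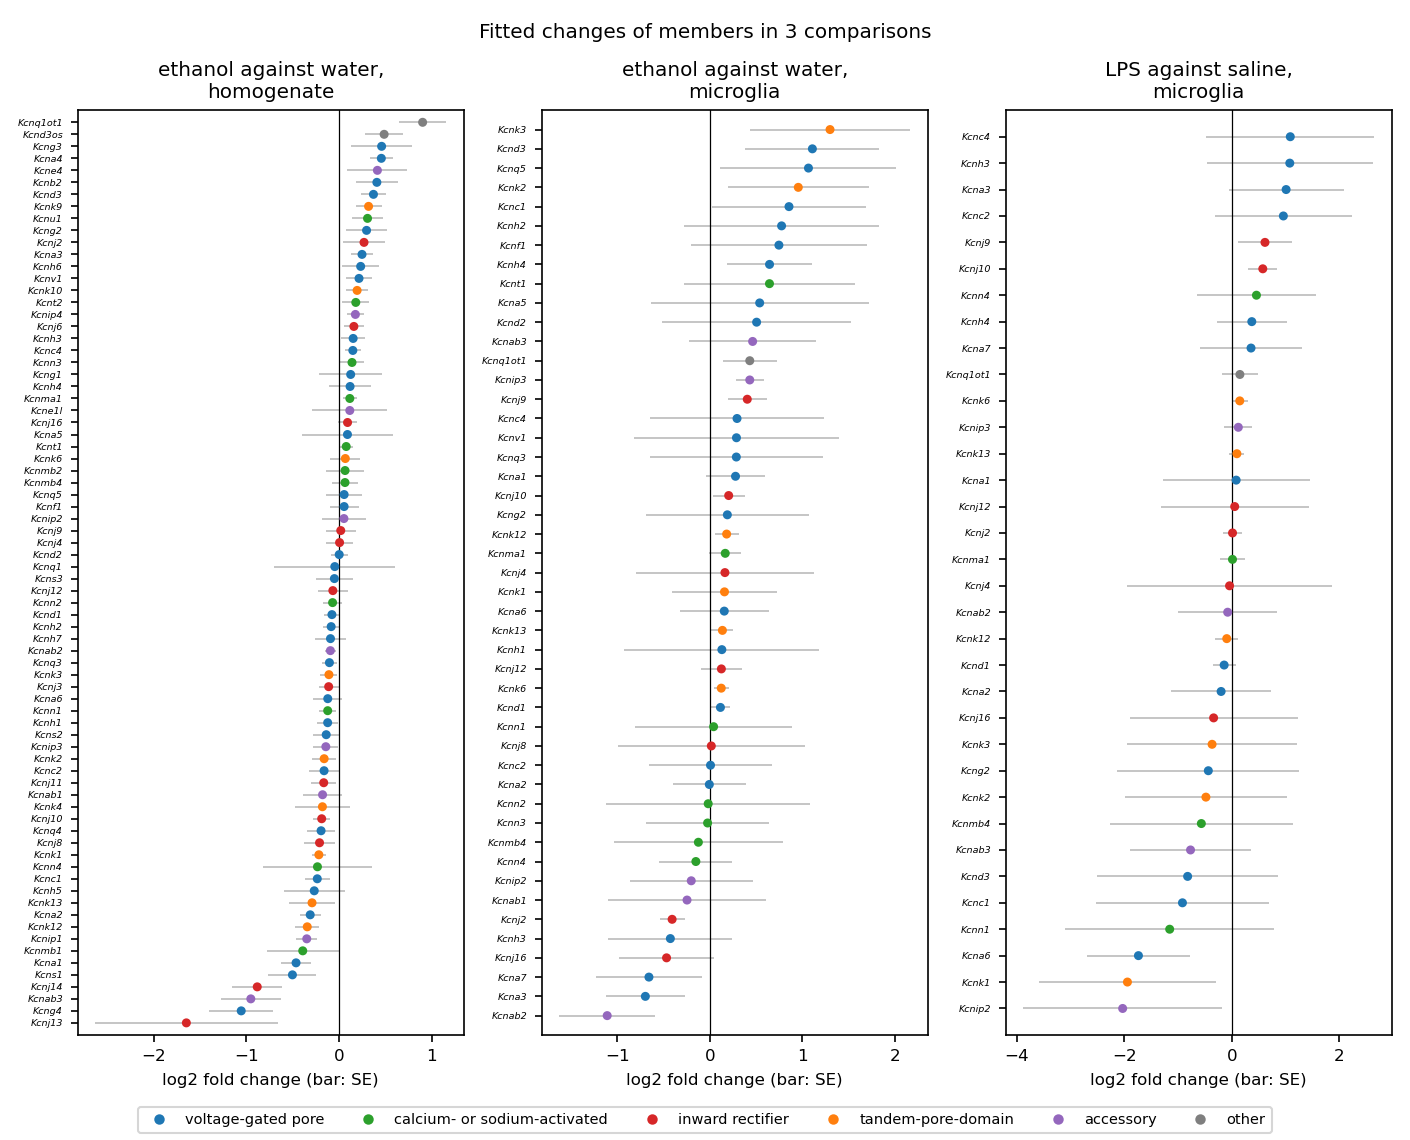
Log2 fold change with SE of the members tested in ethanol against water homogenates, ethanol against water microglia and LPS against saline microglia, coloured by subfamily, with 3 members not drawn. In each panel 0 members passed an adjusted p of 0.05, and error bars widen from the first panel to the third.

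The third question was whether LPS, 1 week earlier, changed the members in microglia. Of 36 tested among 12469 genes, 0 passed in edgeR, where 2 of all genes did (0.0160%). An unadjusted p under 0.05 was reached by 1 member, or 2.78% against 5.78% of all genes, and DESeq2 called 0. No member's groups separated, against 1.65% of all genes. That 1 member was Kcnj10, with 10.9, 25.2, 19.03, 12.5 and 19.7 CPM after saline and 35.4, 24.7, 30.4, 21.2 and 18.2 CPM after LPS, a log2 fold change of 0.58 (SE 0.27, edgeR adjusted p = 0.864). The 10 astrocyte markers had a median change of 0.29 in the same fit.

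Kcna6, a voltage-gated pore subunit, came closest to separating. Its saline libraries held 8.36, 4.17, 3.92, 4.53 and 2.71 CPM and its LPS libraries 1.68, 1.46, 0.873, 3.06 and 0.0471 CPM, so that only the lowest saline and the highest LPS library crossed. The log2 fold change was -1.74 (SE 0.96, edgeR adjusted p = 0.928). In the other cohort, water microglia ranged from 0.510 to 10.2 CPM. The changes fitted for Kcnk1 (-1.94, SE 1.65) and Kcnip2 (-2.03, SE 1.85) rested on saline mouse 38, which held 11.3 and 6.53 CPM of these genes against at most 1.15 and 1.02 CPM in the other saline libraries. Without that library the changes were 0.96 and -0.11. Kcnj9 had a log2 fold change of 0.62 (SE 0.50). For the microglia-led members the log2 fold change was 0.15 (SE 0.15) for Kcnk6, 0.10 (SE 0.14) for Kcnk13, -0.09 (SE 0.21) for Kcnk12, -0.14 (SE 0.21) for Kcnd1 and 0.02 (SE 0.18) for Kcnj2. Without saline mouse 38 the change was 0.11 for Kcnd1 and -0.0062 for Kcnj2. Kcnn4 and Kcna3, which are known to rise in microglia activated in culture, had log2 fold changes of 0.46 (SE 1.11) and 1.01 (SE 1.07).

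The fourth comparison asked, by an interaction term, whether microglia and homogenate responded differently to ethanol. Of 80 members tested among 15797 genes, 0 passed in edgeR, where 54 of all genes did (0.342%), and an unadjusted p under 0.05 was reached by 15, or 18.8% against 12.4%. This fit treated the homogenate and the microglia of a mouse as independent. With the mouse as a block in edgeR, 4 members reached that unadjusted p. It was 4 with voom, 7 in edgeR without mice 19 and 24, and 16 with DESeq2. The share of all genes at that p was not computed for these fits. Kcna4 had the smallest p, with a difference of -3.80 (SE 0.92, edgeR adjusted p = 0.0541). DESeq2 called it with an adjusted p of 4.4e-04, and with the mouse as a block the value was -3.33 with an adjusted p of 0.553. In microglia it rested on 22 counts over 8 water libraries and 2 counts over 10 ethanol libraries. Among members with well-filled microglial libraries, Kcnk12 differed by 0.55 (SE 0.19, edgeR adjusted p = 0.170) and Kcnip3 by 0.61 (SE 0.20, edgeR adjusted p = 0.159), each lower in homogenate and higher in microglia with ethanol. Kcnj2 differed by -0.65 (SE 0.28, edgeR adjusted p = 0.318). Kcnj11, the pore of ATP-sensitive channels, differed by -1.85 (SE 0.69) on 73 counts in water and 22 in ethanol microglia, while Kcnmb2 and Kcne1l had 0 counts in water microglia and 7 and 18 in ethanol microglia.

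The fifth set saline microglia against water microglia, in which cohort and injection cannot be told apart. The inferred run nearly coincided with them, since the microglia of water mouse 15 were the 1 water library in the third run, which held all saline libraries. Of 45 members tested among 13218 genes, 0 passed in edgeR, where 110 of all genes did (0.832%), and an unadjusted p under 0.05 was reached by 5, or 11.1% against 11.6%. Kcnh4, a neuronal voltage-gated subunit, had 1.06 to 4.55 CPM in water microglia and 9.41, 10.2, 7.51, 0.293 and 8.53 CPM in saline microglia, with only 1 saline library under the water range (1.37, SE 0.59, edgeR adjusted p = 0.371). The fitted changes of Kcnma1 and Kcnab3 were 0.43 (SE 0.20) and 1.34 (SE 0.65), and that of Kcnj8, a pericyte subunit sparse here, was -3.60 (SE 1.67). Kcnj12 was the 1 member whose groups separated, against 1.03% of all genes, and it was singled out after its values were seen. It held 4.97 to 11.3 CPM in water microglia and 0.0480, 1.97, 4.73, 0 and 4.06 CPM in saline microglia, a change of -1.73 (SE 0.84, edgeR adjusted p = 0.448). A fit with the run as a factor was added after seeing the data. This fit sets the saline libraries against 1 water library, assumed to vary like the others, and gave -1.86 (SE 1.44) for Kcnj12, 1.30 (SE 1.37) for Kcnh4, 0.76 (SE 0.43) for Kcnma1, 1.52 (SE 1.57) for Kcnab3 and 0.71 (SE 3.11) for Kcnj8. LPS libraries of the same cohort held 5.89, 1.90, 1.87, 0.0695 and 1.41 CPM of Kcnj12.

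Proteins that work with these channels without a Kcn symbol showed the same absence of calls. A list of 20 such genes covered the auxiliary proteins Dpp6 and Dpp10, the sulfonylurea receptors, the Lrrc gamma subunits, the Hcn pacemaker channels and the axonal scaffolds, among others. In edgeR 0 of them passed in any of the 5 comparisons. An unadjusted p under 0.05 was reached by 1 of 18 tested in homogenate, where 16.1% of all genes reached it. In ethanol microglia it was 1 of 14 against 7.65% of all genes, and after LPS 0 of 10 against 5.78%. In the interaction it was 5 of 18 against 12.4%, and between cohorts 0 of 11 against 11.6%. The pacemaker channel Hcn2 was that 1 gene in homogenate, with 342 ± 68.0 CPM (SD, n = 9) with water and 276 ± 31.4 CPM (SD, n = 10) with ethanol and a log2 fold change of -0.30 (SE 0.10, edgeR adjusted p = 0.133). In microglia it was Ank3, the ankyrin of the axon initial segment, with 6.24 ± 1.94 CPM (SD, n = 8) and 9.67 ± 3.50 CPM (SD, n = 10) and a change of 0.60 (SE 0.24, edgeR adjusted p = 0.554).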

How the data were processed

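Poly(A) RNA was sequenced as paired-end reads of 75 bp from libraries made with a directional kit and 15 PCR cycles, per the labels' protocols. The deposited values are whole-number read counts of gene symbols, 1 table per library; bcl2fastq 2.15.0.4, STAR, FastQC, HTSeq and DESeq2 and the build mm10 are named, without settings, per the submitters' processing notes. Neither annotation nor strand setting is given in the sources used here. For 12 members whose exons overlap another gene on the opposite strand, among them Kcnq1 and Kcnq1ot1, reads may therefore be shared. Tally entries such as reads outside genes stayed out of library sizes and tests. Of 48 samples listed, 47 had counts, and the microglial library of water mouse 26, marked by its label as removed, was not analysed here.

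CPM was computed from the deposited counts over the total in genes, and CPM per kb with exon lengths of GENCODE M21 (GRCm38), which matched all 80 members. Tests used edgeR 4.0.16 in R 4.3.3 (quasi-likelihood, TMM, filterByExpr, Benjamini-Hochberg at 0.05 over all genes tested), after a check on simulated data. The SE is the log2 fold change divided by the root of its F statistic. Homogenate and microglia of a number were taken to be of the same mouse, by the numbers and the protocol. Deviations of the 18 pairs correlated with a median of 0.0240 (-0.0210 to 0.123), which gives no support of its own for the pairing. Libraries within a group differed beyond sampling noise (lowest chi-square per degree of freedom 13.2). Counting limits cover counting error only. Alternatives were RLE scaling, filters, DESeq2 1.42.0, voom (limma 3.58.1), covariates, inferred runs, the mouse block and leaving out each library. Sequencing runs were inferred from sample indices and are not labelled.

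Named genes were the 6 members of smallest p in each comparison, the 10 most abundant in each preparation, the 10 largest and 5 smallest preparation ratios, known ethanol-sensitive and microglial channels, and those next to the threshold; 3 members that this rule names are not reported here. The members and lists were chosen with earlier results of these data known.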

Additional observations from a re-analysis of the deposited data

Results flagged for a closer look

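The levels checked were those picked for printing here and not all levels of all members. Among these 117 levels of a member in a group of 5 to 10 libraries, 20 had a lowest or highest library far from the others by Dixon's test at the 95% level. Chance gives such a library in about 1 in 20 groups, but the printed levels are a selection, so their count cannot be read against this rate.

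Several of these libraries were the ones with high marker sums. The microglia of water mouse 19, with the highest neutrophil sum, held 75.2 CPM of Kcnab2 (next 13.6) and 8.11 CPM of Kcnn4 (next 4.48). The homogenate of water mouse 25, with the highest choroid plexus and ependymal sum, held 15.0 CPM of Kcnj13 (next 2.10) and 2.23 CPM of Kcnn4 (next 0.346). Its mural, endothelial and border macrophage sums were also the highest of the water homogenates. The homogenate of ethanol mouse 14 held 3.79 CPM of Kcnj13 (next 1.79) and the lowest Kcnd1 level, 4.88 CPM. That of ethanol mouse 3, with the highest oligodendrocyte sum of its group, held 16.5 CPM of Kcnk13 (next 8.97) and 74.3 CPM of Kcnab3 (next 33.9). Kcnab3 also reached 157 CPM in the homogenate of water mouse 19 (next 91.3).

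Kcnq1ot1 was far from the rest in the homogenates of water mouse 17 (98.2 CPM) and ethanol mouse 9 (211 CPM) and in the microglia of water mouse 24 (29.3 CPM), where reads outside genes made up 26.9%, 36.7% and 56.2%. These were the highest shares of their groups.

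Saline mouse 38 held 82.4 CPM of Kcnd1 (next 46.8), 11.3 CPM of Kcnk1 (next 1.15) and 6.53 CPM of Kcnip2 (next 1.02). Saline mouse 48 held 0.293 CPM of Kcnh4 and LPS mouse 50 held 32.3 CPM of Kcnd1, both the lowest of their groups. The microglia of ethanol mouse 10 held 17.1 CPM of Kcnj12 and 2.14 CPM of Kcna5, and the homogenate of ethanol mouse 7 held 234 CPM of Kcnma1.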

How the results depend on the processing

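Ethanol in homogenate called 0 members under all settings but DESeq2, which called 4, and the fits leaving out 1 library, which called 0 to 2. The 2 were Kcnk1 and Kcnq1ot1, without ethanol mouse 1. Leaving out 1 library called 0 members in ethanol microglia, LPS and between cohorts. The interaction called 0 members except with DESeq2 (1). With the mouse as a replicate block it called 0 members and 0 of all genes in place of 54. By the sign of the difference within every paired water mouse, 6 members were higher and 71 lower in microglia. That rule is looser than the absence of overlap that gave 5 and 68, and the share of all genes was not computed for it. In ethanol mice 3 members were higher in microglia without overlap in place of 5.

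Over all genes, homogenate calls went from 123 to 62 with no filter, 534 with DESeq2 and 0 with the outside share. Without 1 library they were 39 to 275. Within the first and within the second inferred run they were 0, each a fit of fewer libraries, and the third run was not fitted alone. Microglial calls went from 1 to 49 (DESeq2), 8 (voom) and 0 and 4 within the first and second runs, and 0 to 7 without 1 library. LPS calls went from 2 to 17 (no filter), 48 (DESeq2) and 1 (voom), and 0 to 6 without 1 library. Interaction calls were 35 with the stricter filter, 265 with DESeq2, 25 with voom, 35 with the run, 17 without mice 19 and 24, and 85 without their microglial libraries. Cohort calls went from 110 to 328 (DESeq2), 169 (voom), 56 (outside share) and 0 (run as factor), and 31 (without saline mouse 48) to 229 (without saline mouse 38) without 1 library.

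Of 501 log2 fold changes of named members under other settings, 16 changed sign, and the cause was not tested. With the oligodendrocyte covariate Kcnmb4 was -0.018, Kcnj9 -0.17 and Kcnn2 0.017 in homogenate. Kcnn3 was -0.014 with the outside share and -0.033 within the second run, and Kcnj9 -0.23 within the first. In ethanol microglia, Kcnab2 was 0.064 (DESeq2) and 0.35 (second run), Kcnj9 -0.14 (first run), Kcna5 -0.23 (run as factor), Kcnk12 -0.22 (second run) and Kcnn4 0.36 (second run) and 0.11 (without water mice 19 and 24). With voom, Kcnk1 was 0.48 and Kcnj2 -0.049 after LPS. With the run as a factor, Kcnj8 was 0.71 between cohorts. Leaving out 1 library turned Kcnj9 in homogenate (-0.063 to 0.095), Kcnab2 (-1.27 to 0.068) and Kcnn4 (-0.30 to 0.12) in ethanol microglia, and Kcnk1 (-2.26 to 0.96), Kcnj2 (-0.099 to 0.0998), Kcnd1 (-0.23 to 0.11) and Kcnn4 (-0.035 to 0.96) after LPS.

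Low levels in microglia limit what can be detected there: the SE exceeded 1 on the log2 scale for 7 of 50 members with ethanol, 21 of 36 with LPS and 20 of 45 between cohorts.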
